A study of Homo sapiens with 6 samples.

Results

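The ABC transporter family was taken as every protein-coding gene whose symbol begins with ABC, a subfamily letter from A to G and a digit, which gave 45 of the 58735 genes in the count table. TAP1, TAP2 and CFTR belong to the same family under other symbols and were kept apart as related genes. The libraries are bulk RNA-seq of HCT-8, a human ileocecal adenocarcinoma cell line. The 3 treated samples received 5-fluorouracil (5-FU), a uracil analogue that inhibits thymidylate synthase and enters nucleic acids, at its 10% inhibitory concentration (IC10), and the 3 control samples were untreated HCT-8 cells for which no vehicle is named. Neither the molar dose nor the length of treatment is stated, and this cell line is the only model. The labels do not say whether replicates were grown separately, so each p-value reflects variation among these libraries that may be technical only.

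ABC transporters use ATP bound by paired cytoplasmic domains to move a substrate across a membrane. Members of the B, C and G subfamilies pump drugs and their conjugates out of cells, and in the intestinal epithelium several of them limit the uptake of foreign compounds. Members of the A subfamily and some of the G subfamily move sterols and phospholipids, D subfamily members serve the peroxisome or the lysosome, and a few B subfamily members sit in mitochondria. E and F subfamily members have no membrane domain and act on ribosomes. By these roles the 45 genes comprised 12 drug and organic anion exporters, 18 lipid transporters, 4 mitochondrial, 3 peroxisomal, 2 lysosomal and 4 ribosome-linked members, and 2 sulfonylurea receptors, which are regulatory subunits of potassium channels.

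After 5-FU most tested drug exporters and lipid transporters rose. Mitochondrial members went both ways, and of the ribosome-linked members ABCE1 and ABCF1 fell while the others did not pass. Of the 45 genes, 35 had enough counts to be tested. With a threshold of 0.05 on the adjusted p of edgeR's quasi-likelihood test, 27 of the 35 passed, near the 70.2% of all 19771 tested genes that did. The split by direction was uneven: 22 rose (62.9%) and 5 fell (14.3%), where 36.3% of all tested genes rose and 33.9% fell. Among tested protein-coding genes the shares were 27.8% and 43.6%. In 5 of the 22 (ABCA4, ABCA10, ABCA13, ABCC9 and ABCC11) no control library reached the count filter, so they could be tested only because of their 5-FU counts. Of the other 30 tested members 17 rose and 5 fell. The median log2 fold change was 0.95 over the 35 members and 0.09 over all tested genes. The groups did not overlap in 29 members, with 5-FU above control in 23 and below it in 6, where 38.4% and 35.9% of all tested genes did so. With upper-quartile scaling, which moved the median of all genes by 0.36 on the log2 scale, 25 members rose and 4 fell, where 48.6% and 23.3% of all genes did. On the authors' FPKM values (log2 with a pseudocount of 1, limma), 13 of the 26 members past the filter rose and 8 fell, where 26.8% and 44.3% of all genes did and their median moved by -0.29. Of the 13, ABCA1, ABCA5, ABCB4 and ABCB9 were below 1 FPKM in each control library and passed that filter only through their 5-FU values. By subfamily, 7 of 9 tested ABCA, 5 of 7 ABCB, 7 of 9 ABCC and 2 of 3 ABCG members rose, with 2 ABCB members and 1 ABCC member that fell. Of 3 tested ABCD members 1 rose, and of the ABCE and ABCF members 1 each fell and none rose. A bulk value is relative to its library, so fewer cells expressing a gene and less of its RNA per cell cannot be told apart.

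**Figure D1:**
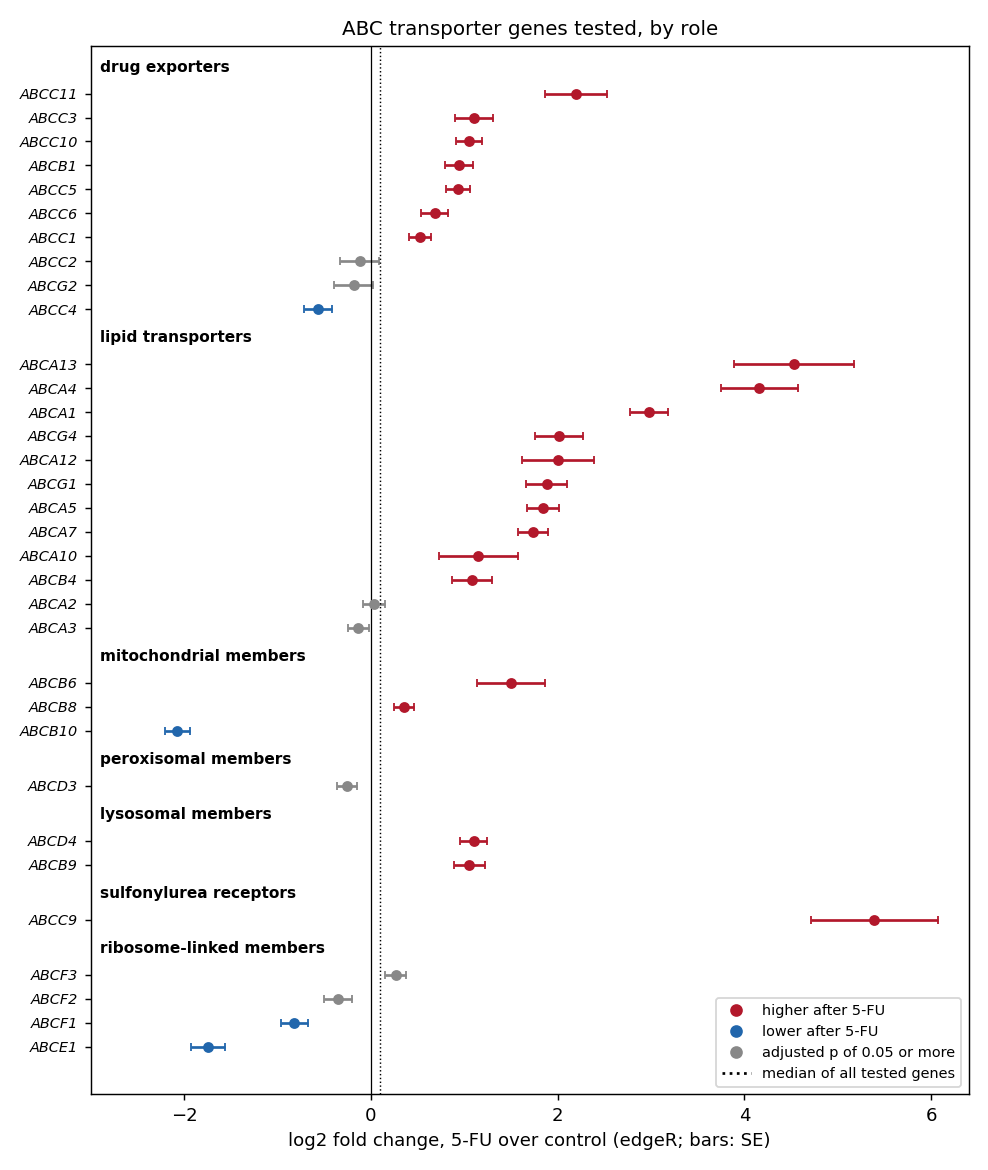
Log2 fold change of 33 of the 35 tested ABC genes, 5-FU over control, grouped by role. Points are edgeR estimates with their SE, red for genes that rose, blue for genes that fell and grey for the 7 shown that did not pass, and the dotted line is the median of all tested genes, 0.09.

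Library totals lay between 18459939 and 20613228 counts after 5-FU and between 21659252 and 23495607 in control. Mitochondrially encoded transcripts took 25.5% to 28.5% of counts in 5-FU libraries and 4.66% to 4.88% in control libraries. In a fit without these transcripts 23 members rose and 6 fell, where 36.4% and 33.9% of all tested genes did. The 9 colorectal epithelial markers summed to between 3703 and 4592 CPM (counts scaled to library size with TMM factors) in 5-FU libraries and between 4847 and 6674 CPM in control libraries. Of other cell types, 5 leukocyte markers summed to 5.48 to 7.13 CPM after 5-FU and 6.64 to 7.25 CPM in control, most of it CD14. For 4 endothelial markers the sums were 3.55 to 5.55 CPM after 5-FU and 2.17 to 3.12 CPM in control. The 5 fibroblast markers reached 34.3 to 64.6 CPM after 5-FU and 15.7 to 20.2 CPM in control, most of it COL1A1, while DCN had no count in any library. Hepatocyte markers stayed at or below 0.663 CPM in 5-FU and 0.0904 CPM in control libraries, and neuronal markers lay at 3.50 to 4.08 CPM after 5-FU and 3.10 to 4.79 CPM in control. The part of these markers in the results was not tested.

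Promoter sequences from RefSeq (GRCh38.p14) could be matched to 35 of the 45 genes. Those of ABCC5 (a drug exporter that rose), ABCA1 (a lipid transporter that rose), ABCF1 (a ribosome-linked gene that fell) and ABCB10 (a mitochondrial gene that fell) are shown as examples of members that moved in either direction. They do not stand for their roles, since some mitochondrial members rose and some ribosome-linked members did not pass. Each is the 150 bases before the RefSeq start, with capitals marking a TATA box (TATAAA), GC box (GGGCGG), E-box (CACGTG) or CCAAT box (CCAAT) on either strand, none of which contains another. The capitals that open the ABCB10 stretch are the end of a GC box that begins outside it.
ABCC5, chr3:184017885-184018034, minus strand: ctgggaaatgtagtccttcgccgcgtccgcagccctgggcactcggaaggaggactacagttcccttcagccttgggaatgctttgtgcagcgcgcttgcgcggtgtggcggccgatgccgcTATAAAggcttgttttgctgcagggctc
ABCA1, chr9:104928156-104928305, minus strand: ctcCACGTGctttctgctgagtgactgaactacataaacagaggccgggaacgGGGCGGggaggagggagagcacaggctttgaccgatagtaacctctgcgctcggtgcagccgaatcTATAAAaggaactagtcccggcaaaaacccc
ABCF1, chr6:30571292-30571441, plus strand: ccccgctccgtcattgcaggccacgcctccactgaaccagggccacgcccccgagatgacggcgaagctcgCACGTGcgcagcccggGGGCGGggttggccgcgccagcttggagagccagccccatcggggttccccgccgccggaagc
ABCB10, chr1:229558708-229558857, minus strand: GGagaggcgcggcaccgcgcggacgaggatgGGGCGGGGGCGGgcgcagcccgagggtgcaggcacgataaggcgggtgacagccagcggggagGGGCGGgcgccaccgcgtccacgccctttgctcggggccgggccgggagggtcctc

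In the 250 bases before the start, a GC box stood in 11 of 17 matched members that rose and 2 of 4 that fell, against 42.6% of all 35116 RefSeq promoters. An E-box stood in 2 of the 17 and 1 of the 4, against 6.34%, a TATA box in 3 and 0, against 10.7%, and a CCAAT box in 3 and 0, against 32.0%. These matches describe letters and were not tested against the fold changes. The gene model used for the counts begins upstream of the RefSeq start for ABCC5 (by 131 bases), ABCA1 (82) and ABCF1 (66), so that many of the last printed bases lie inside the counted gene. For ABCB10 it begins 12 bases downstream of the RefSeq start.

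Drug exporters rose in 7 of 10 tested members and fell in 1, at a median log2 fold change of 0.81, beside 27.8% of tested protein-coding genes that rose and 43.6% that fell. ABCC11 among them was tested only through its 5-FU counts, and without it 6 of 9 rose and 1 fell. ABCB1 encodes P-glycoprotein, the multidrug efflux pump, and is the most abundant ABC gene of these cells per unit length. ABCB1 had 704, 508 and 637 CPM in the 5-FU libraries, against 314, 312 and 334 CPM in the control libraries. The 3 control libraries lay close together and below each treated library. It rose by 0.95 on the log2 scale (SE 0.15), with an edgeR adjusted p of 0.000162. Its gene lies on chromosome 7 at 87503633 to 87713323, minus strand of GRCh38.

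ABCC1, which exports glutathione conjugates and many anticancer drugs, had 277, 272 and 253 CPM after 5-FU and 192, 180.2 and 184 CPM in control, a rise of 0.53 on the log2 scale (SE 0.12). ABCC3, an exporter of glucuronides and bile salts on the basolateral side of enterocytes, had 466, 453 and 317 CPM in 5-FU libraries and 178, 249 and 149 CPM in control libraries. Its groups did not overlap, although libraries within each group differed widely, and its log2 fold change was 1.10 (SE 0.20). ABCC10, a pump for taxanes and other drugs, rose by 1.06 (SE 0.14), with 78.9, 68.5 and 59.7 CPM after 5-FU against 29.2, 35.9 and 34.5 CPM in control. ABCC6, which mediates release of ATP from cells, had 32.5, 25.9 and 25.7 CPM after 5-FU and 17.3, 19.5 and 15.6 CPM in control (log2 fold change 0.68, SE 0.15). The edgeR adjusted p of these 4 genes lay between 4.37e-05 and 0.00159. Reads of ABCC6 may be shared with its close pseudogenes, so its value is uncertain.

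ABCC4, ABCC5 and ABCC11 export nucleotide monophosphates and their analogues, and ABCC5 and ABCC11 are known to transport the 5-FU metabolite fluorodeoxyuridine monophosphate in transfected cells. ABCC5 had 127, 99.2 and 100.9 CPM after 5-FU, against 51.7, 61.3 and 58.4 CPM in control, and rose by 0.93 on the log2 scale (SE 0.13, edgeR adjusted p = 7.73e-05). ABCC11 was scarce, at 2.34, 1.56 and 1.89 CPM after 5-FU and 0.404, 0.452 and 0.395 CPM in control, and rose by 2.20 (SE 0.33, edgeR adjusted p = 0.000114). ABCC4 moved the other way, with 66.5, 73.9 and 99.4 CPM after 5-FU and 120.0, 115 and 119.9 CPM in control. It fell (log2 fold change -0.57, SE 0.15, edgeR adjusted p = 0.00477), and the call was lost with upper-quartile scaling (-0.21, edgeR adjusted p = 0.188) and at a mean count of at least 50 (-0.32, edgeR adjusted p = 0.0654). The exporters linked to nucleotide analogues thus held members that rose and a member that fell.

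ABCG2, the breast cancer resistance protein that exports many drugs, was scarce, with 3.21, 3.81 and 3.74 CPM after 5-FU and 4.17, 3.66 and 4.39 CPM in control. ABCC2, the apical exporter of conjugates, had 42.9, 31.7 and 29.4 CPM after 5-FU and 35.8, 49.3 and 27.8 CPM in control. Groups overlapped for both, with log2 fold changes of -0.18 (SE 0.21, edgeR adjusted p = 0.444) for ABCG2 and -0.12 (SE 0.20, edgeR adjusted p = 0.611) for ABCC2, and both signs turned with upper-quartile scaling. ABCB5 and ABCC12 were near absent: ABCB5 had 6 counts in all over the 5-FU libraries and 1 over the control libraries, and ABCC12 had 0 and 3.

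**Figure D2:**
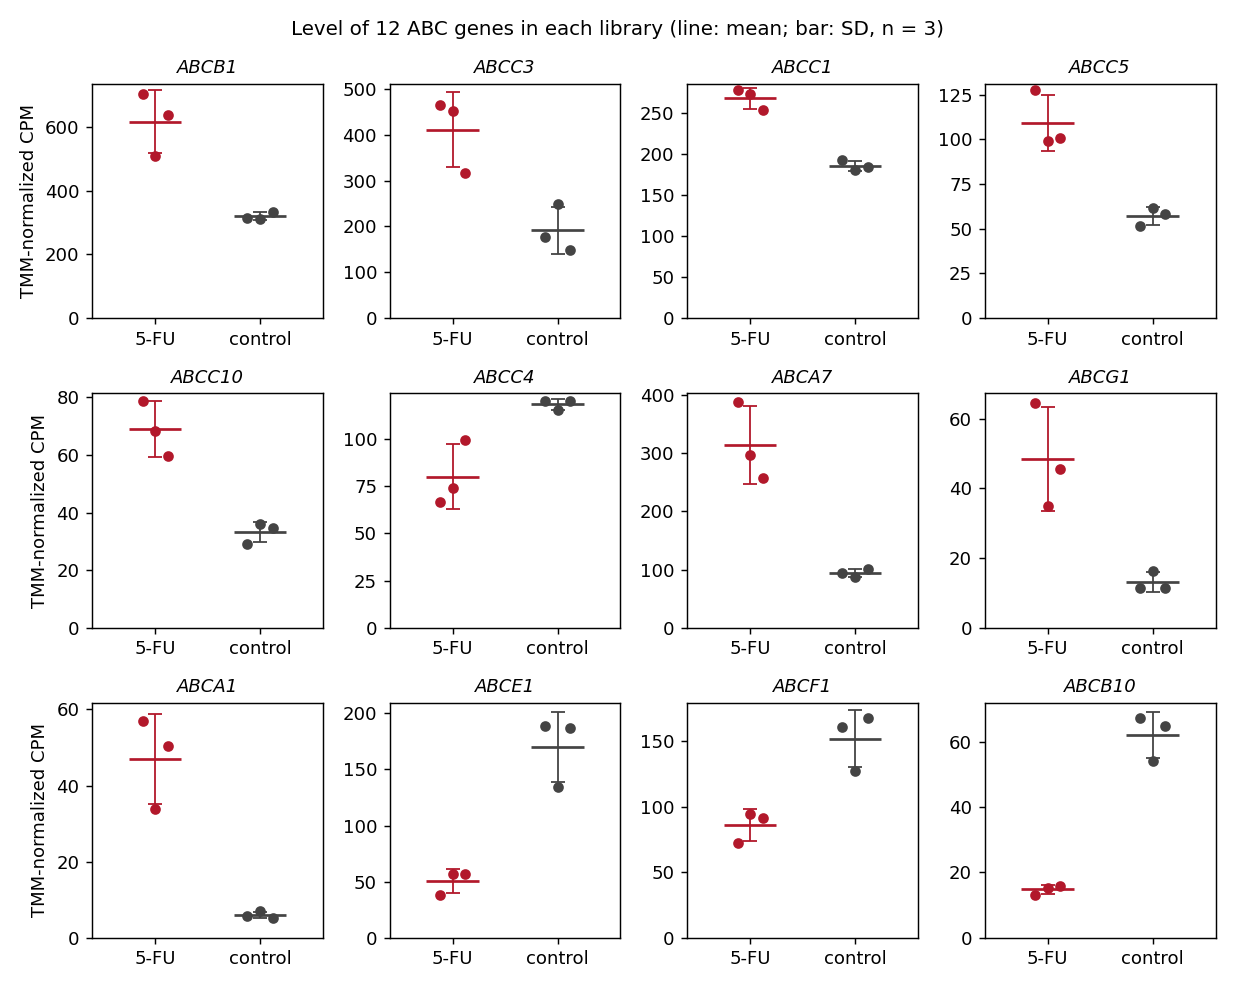
Level of 12 ABC genes in each library, in TMM-normalized CPM on axes that start at 0, with 5-FU left of control. Points are libraries, long lines means and bars SD (n = 3). ABCC4, ABCE1, ABCF1 and ABCB10 lie lower after 5-FU and the other 8 lie higher, with no overlap between groups.

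Lipid transporters rose in 10 of 12 tested members, each at least 2-fold, which held for 25.3% of all tested genes, and none fell. ABCA4, ABCA10 and ABCA13 among them were tested only through their 5-FU counts, and without them 7 of 9 rose. In the refit with a mean count filter of 50, 7 of 8 rose, where 36.5% of all tested genes did. Scaling factors were recomputed there on the genes kept, so that refit differs in more than depth. The 7 include ABCA2 (log2 fold change 0.29, edgeR adjusted p = 0.0475), which did not pass in the main fit (0.04). In the main fit the median log2 fold change of the 12 tested lipid transporters was 1.87. ABCA1, which loads cellular cholesterol and phospholipid onto apolipoprotein A-I, had 56.9, 33.8 and 50.3 CPM after 5-FU and 5.74, 6.91 and 5.23 CPM in control. The lowest treated library was well above the highest control library, and it rose 7.87-fold, by 2.98 on the log2 scale (SE 0.21, edgeR adjusted p = 1.02e-06). ABCG1, which passes sterol on to high-density lipoprotein, had 64.5, 35.0 and 45.6 CPM after 5-FU, against 11.5, 16.4 and 11.4 CPM in control (log2 fold change 1.88, SE 0.22). ABCG4, its close relative best known from the brain, had 8.20, 5.998 and 5.02 CPM after 5-FU and 1.44, 1.45 and 1.88 CPM in control (2.01, SE 0.26).

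ABCA7, a phospholipid transporter, was the most abundant lipid transporter after 5-FU, with 387, 297 and 258 CPM there against 94.2, 88.0 and 100.3 CPM in control (log2 fold change 1.74, SE 0.16). ABCA5, found in lysosomes and late endosomes, had 22.4, 17.1 and 20.3 CPM after 5-FU and 6.37, 5.02 and 5.23 CPM in control (1.85, SE 0.17). ABCA4, the retinoid transporter of photoreceptors, was barely present in control, with 81, 70 and 69 counts after 5-FU and 7, 5 and 1 in control (4.16, SE 0.41). The edgeR adjusted p of ABCA4, ABCA5, ABCA7, ABCG1 and ABCG4 lay between 4.18e-06 and 3.82e-05. ABCA12, which moves ceramides in skin cells, rose by 2.005 (SE 0.38) and ABCB4, the phosphatidylcholine transporter of bile, by 1.08 (SE 0.22). ABCA10 passed with 0.825 ± 0.286 CPM after 5-FU and 0.367 ± 0.107 CPM in control (SD, n = 3 each; edgeR adjusted p = 0.0267). That call was lost without 5-FU replicate 1, 5-FU replicate 3, control replicate 1 or control replicate 3 (edgeR adjusted p from 0.0608 to 0.133), and in DESeq2 (adjusted p = 0.174).

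ABCA13 had 15, 15 and 21 counts after 5-FU and 0, 1 and 1 in control, a ratio of 27.5 after scaling to library size (exact 95% interval 7.24 to 233, counting error only; edgeR adjusted p = 5.21e-05). ABCA2, abundant in lipid-rich nervous tissue, had 233, 216 and 202 CPM after 5-FU and 200.8, 224 and 210.4 CPM in control. Its groups overlapped, with a log2 fold change of 0.04 (SE 0.12), and after 5-FU it stood second to ABCA7 among lipid transporters per unit length. ABCA3, the surfactant lipid transporter of the lung, did not pass either (-0.13, SE 0.11).

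The ABCA genes of chromosome 17 lie side by side from 68867292 to 69327244 in the order ABCA8, ABCA9, ABCA6, ABCA10, ABCA5, with gaps of at most 19.1 kb, and the ends of ABCA10 and ABCA5 overlap (a gap of -535 bases). ABCA6, ABCA8 and ABCA9 were at 0 in each control library and had 11, 18 and 18 counts over the 5-FU libraries. Set against a floor of 3 counts over the control group, the observed 5-FU counts were 3.96-fold, 6.48-fold and 6.48-fold higher after scaling to library size. These ratios leave out counting error, and the genes were not tested since they fell short of the count filter. Most counts of ABCA6 (8) and ABCA9 (11) came from 5-FU replicate 3. ABCB11, the bile salt pump, was also at 0 in control and had 12 counts after 5-FU, 4.32-fold above the same floor. ABCG8, which forms a sterol exporter with ABCG5, had 11, 8 and 13 counts after 5-FU and 1, 3 and 2 in control, and ABCG5 had 4, 4 and 4 after 5-FU and 0, 3 and 4 in control. Per unit length these 6 genes averaged at most 0.0506 FPKM after 5-FU, where ABCA1 averaged 3.87 FPKM.

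Mitochondrial members split, with 2 of 4 that rose and 2 that fell, beside 27.8% and 43.6% of tested protein-coding genes. ABCB10, an inner membrane transporter needed for haem synthesis, showed the largest fall among the 35 tested members, with 13.2, 15.1 and 16.0 CPM after 5-FU and 67.2, 54.2 and 64.7 CPM in control (log2 fold change -2.07, SE 0.14, edgeR adjusted p = 8.75e-07). ABCB8, an inner membrane transporter linked to iron handling, had 67.6, 65.5 and 60.1 CPM after 5-FU and 51.3, 47.9 and 51.6 CPM in control. It passed at a log2 fold change of 0.36 (SE 0.11, edgeR adjusted p = 0.0123), and lost the call in DESeq2 (0.21, adjusted p = 0.200), on FPKM values (0.18, limma adjusted p = 0.111) and without 5-FU replicate 2, control replicate 1 or control replicate 2 (edgeR adjusted p from 0.0506 to 0.0531). ABCB6, a porphyrin transporter, had 4.58, 2.87 and 2.60 CPM after 5-FU and 0.628, 1.63 and 1.28 CPM in control (1.503, SE 0.36, edgeR adjusted p = 0.00291). Another gene of the same strand shares 54.7% of the exonic bases of ABCB6, so this low value is uncertain.

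Of 4 ribosome-linked members 2 fell, a share near the 43.6% of tested protein-coding genes that fell. ABCE1, the essential factor that splits ribosomes after termination, had 38.3, 57.0 and 56.5 CPM after 5-FU, against 189, 134 and 187 CPM in control. It fell (log2 fold change -1.75, SE 0.18, edgeR adjusted p = 9.15e-06), and 11.9% of its exonic bases also belong to genes of the opposite strand. ABCF1, which binds initiation factor eIF2 and the ribosome, had 72.3, 94.2 and 91.6 CPM after 5-FU and 161, 127 and 168 CPM in control (-0.82, SE 0.15, edgeR adjusted p = 0.000411).

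ABCF2 had 22.8, 23.2 and 23.8 CPM after 5-FU and 30.9, 23.3 and 34.8 CPM in control (-0.35, SE 0.15, edgeR adjusted p = 0.0588). ABCF2 passed as lower in 6 other settings, among them DESeq2 (-0.50, adjusted p = 0.0193), DESeq2 size factors in edgeR (-0.39, adjusted p = 0.0447) and the fit without control replicate 2 (-0.53, edgeR adjusted p = 0.00374), the library through which its groups overlapped. Another gene of the same strand shares 45.8% of the exonic bases of ABCF2, so its value is uncertain. ABCF3 had 67.6, 62.1 and 61.5 CPM after 5-FU and 47.6, 57.1 and 54.4 CPM in control (0.26, SE 0.12, edgeR adjusted p = 0.0595). ABCF3 passed as higher in 4 other settings, with its highest value under upper-quartile scaling (0.62, edgeR adjusted p = 0.000759).

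Of 2 lysosomal members 2 rose, and of 2 tested peroxisomal members none passed, beside 27.8% of tested protein-coding genes that rose and 43.6% that fell. ABCD4, which helps vitamin B12 leave the lysosome, had 139, 109.6 and 97.2 CPM after 5-FU and 48.8, 60.5 and 52.0 CPM in control (log2 fold change 1.10, SE 0.15, edgeR adjusted p = 5.53e-05). ABCB9, a lysosomal peptide transporter, had 23.1, 18.6 and 16.4 CPM after 5-FU and 8.61, 9.04 and 10.3 CPM in control (1.05, SE 0.17, edgeR adjusted p = 0.000181), with 24.5% of its exonic bases shared with genes on the opposite strand. ABCD3, which imports branched fatty acids and bile acid precursors, had 90.8, 93.1 and 91.3 CPM after 5-FU and 114, 103 and 111 CPM in control. The groups of ABCD3 did not overlap, and it missed the threshold narrowly (-0.25, SE 0.11, edgeR adjusted p = 0.0521). It passed as lower in 8 other settings, among them DESeq2 (-0.40, adjusted p = 0.00793) and the fits without mitochondrial genes (-0.27, edgeR adjusted p = 0.0468) and without control replicate 2 (-0.33, edgeR adjusted p = 0.0256). ABCD2 had 3 counts over the 5-FU libraries and 0 over the control libraries.

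Of the sulfonylurea receptors, ABCC9 had 68, 32 and 31 counts after 5-FU and 0, 1 and 2 in control, a ratio of 47.1 (exact 95% interval 15.8 to 232, counting error only; edgeR adjusted p = 2.65e-05). No control library of ABCC9 reached the count filter, so it was tested only through its 5-FU counts. ABCC8 had 9, 2 and 13 counts after 5-FU and 2, 1 and 1 in control and was not tested. KCNJ8, a potassium channel pore subunit that pairs with the product of ABCC9, rose by 0.49 (SE 0.17, edgeR adjusted p = 0.0216), and KCNJ11 did not pass (0.38, SE 0.18).

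Per unit length, on the authors' FPKM scale, ABCB1 stood first in both groups, at 99.4 ± 13.8 FPKM after 5-FU and 57.2 ± 2.85 FPKM in control (SD, n = 3 each). After 5-FU it was followed by ABCC3 (40.1 ± 7.44 FPKM), ABCA7 (35.1 ± 6.23) and ABCC1 (33.1 ± 1.20), which do not differ beyond their spread. In control it was followed by ABCF1 (34.9 ± 5.56 FPKM), ABCE1 (28.2 ± 5.56), ABCC1 (25.4 ± 1.157) and ABCC3 (20.6 ± 5.17), whose neighbours in that order overlap too. ABCE1 stood at rank 14 after 5-FU and rank 3 in control, ABCB10 at rank 23 and rank 7, and ABCA7 at rank 3 and rank 10.

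The FPKM summed over the 45 genes was 373 ± 18.6 after 5-FU and 321 ± 10.5 in control. Drug exporters made up 55.4% ± 1.04 of that sum after 5-FU and 42.2% ± 2.34 in control, and ABCB1 alone 26.6% ± 3.01 and 17.8% ± 0.541. Ribosome-linked members made up 11.4% ± 1.82 after 5-FU and 25.2% ± 3.03 in control. These shares are within a library and do not depend on its scaling.

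**Figure D3:**
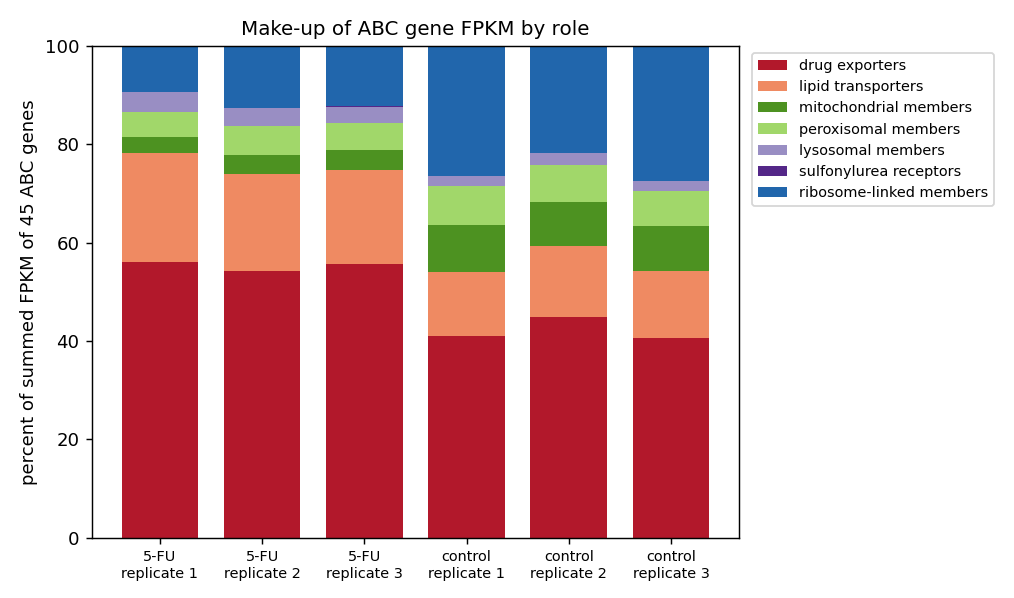
Share of the FPKM summed over 45 ABC genes that each role takes, in percent, in 3 5-FU and 3 control libraries. Drug exporters take 54.2% to 56.2% in the 5-FU libraries and 40.7% to 44.9% in the control libraries, and ribosome-linked members 9.28% to 12.5% and 21.7% to 27.4%.

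Direction in this dataset moved with abundance and gene length, so the members were set beside genes like them. In the most abundant quintile of tested protein-coding genes (mean of at least 79.1 CPM) 16.8% rose and 62.4% fell, at a median log2 fold change of -0.58, while of its 11 ABC members 6 rose and 3 fell, at a median of 0.53. In the least abundant quintile (up to 5.11 CPM) 53.9% rose and 9.94% fell, at a median of 0.93, and of 9 ABC members 8 rose, at a median of 2.01. Among those 8, ABCA4, ABCA10, ABCA13, ABCC9 and ABCC11 were tested only through their 5-FU counts, so this quintile says little of direction. In the middle quintile 21.0% rose and 52.0% fell, at a median of -0.37, and of 8 ABC members 3 rose and 2 fell, at a median of 0.01. The tested members had long gene models, with a median of 7804 bases against 4976 for tested protein-coding genes. The median log2 fold change was 0.02 in the longest quintile of protein-coding genes and -0.48 in the shortest. With a trend on length removed from each library, the member median was 0.88, and 23 members rose and 5 fell, where 32.2% and 35.1% of all tested genes did.

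**Figure D4:**
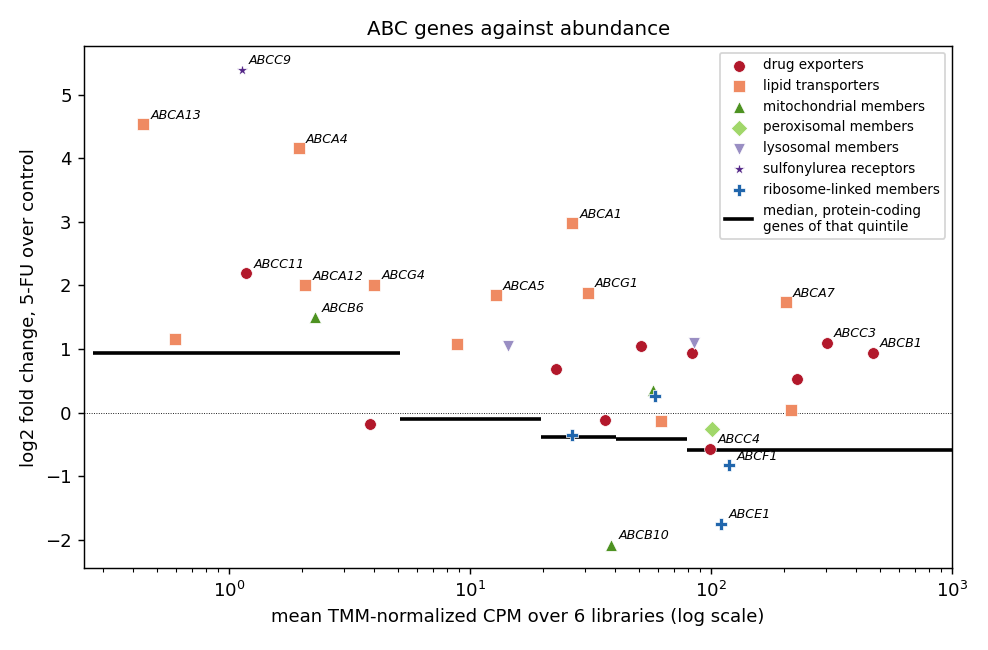
Log2 fold change of 33 of the 35 tested ABC genes, 5-FU over control, against mean CPM on a log axis, with a symbol for each role. Black bars are medians of tested protein-coding genes in each quintile of abundance, from 0.93 in the least to -0.58 in the most abundant, where ABCB1, ABCC3 and ABCA7 lie above the bar and ABCE1 below it.

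Within the treated group the libraries differed in a common way. Of the 22 members that rose, 20 were highest in 5-FU replicate 1, and all 5 that fell were lowest there. Over all genes, 59.5% of those that rose were highest and 65.7% of those that fell were lowest in that library. That library also had the largest mitochondrial share, 28.5%, and the part of this in the members' values was not tested. Without that library 21 members rose and 5 fell, where 33.6% and 31.6% of all tested genes did.

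Related genes listed beside the family moved as follows. CFTR, the chloride channel of the C subfamily, rose to 3.19 ± 0.764 CPM after 5-FU, against 0.586 ± 0.116 CPM in control (log2 fold change 2.43, SE 0.31, edgeR adjusted p = 3.83e-05). TAP1, a subunit of the peptide transporter for antigen presentation, fell (-0.49, SE 0.12, edgeR adjusted p = 0.00260), and its partner TAP2 did not pass (-0.37, SE 0.16). Of 8 tested receptors that control transporter genes (nuclear receptors and AHR) 2 rose and 1 fell. NR1I2, the pregnane X receptor that drives ABCB1, had 59, 56 and 23 counts after 5-FU and 1, 1 and 0 in control, a ratio of 74.5 (exact 95% interval 20.2 to 621, counting error only; edgeR adjusted p = 1.85e-05). No control library of NR1I2 reached the count filter, so it was tested only through its 5-FU counts. NR1I3, the related receptor CAR, rose by 1.44 (SE 0.39) and RXRA, their dimer partner, fell by 0.38 on the log2 scale (SE 0.14).

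Of 7 targets of the liver X receptors outside the family, 2 rose and 2 fell. APOE, an acceptor of cellular lipid, rose by 2.46 (SE 0.27) and MYLIP, which degrades the low-density lipoprotein receptor, by 0.42 (SE 0.17). SCD, a fatty acid desaturase, fell (-2.18, SE 0.26). The liver X receptor genes NR1H2 and NR1H3 did not pass (-0.15, SE 0.13, and -0.07, SE 0.13). Among 9 partners of ABCE1 and the F subfamily in ribosome recycling and GCN signalling 8 fell and none rose, at a median of -0.91, with HBS1L (-1.33, SE 0.13), GSPT1 (-1.28, SE 0.13) and DENR (-0.91, SE 0.12). Of 10 genes of iron-sulfur cluster assembly 8 fell and none rose, at a median of -0.95, with GLRX5 (-1.72, SE 0.16), ISCA2 (-1.28, SE 0.14) and NFU1 (-1.54, SE 0.16). Of 5 peroxisome partners 4 fell and none rose, among them HSD17B4 (-0.99, SE 0.13) and PEX19 (-0.83, SE 0.11). Drug efflux proteins outside the family went both ways, with 2 of 4 higher and 2 lower, among them SLC47A2 (1.17, SE 0.20) and SLC47A1 (-0.66, SE 0.16). Of 5 scaffolds of apical transporters 2 rose and 2 fell, among them MSN (2.39, SE 0.32), RDX (-1.20, SE 0.13) and SLC9A3R1 (-1.01, SE 0.13). Counts of these lists stand beside 27.8% of tested protein-coding genes that rose and 43.6% that fell, and in the middle and the most abundant quintile 52.0% and 62.4% fell.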

How the data were processed

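Counts per gene for 58735 genes in 6 libraries were deposited by the authors as whole numbers, and a second deposited table holds the authors' FPKM for the same genes. Per the submitters' processing notes, which give no roles, the tools were DESeq2 1.16.1, featureCounts 1.5.0-p3 and HISAT2 2.0.5 and the build was GRCh38. No source used here states the strand setting or how reads of several genes were handled. Tested on the values, FPKM equal the count divided by gene length and by 1 constant per library. Positions of all 45 members matched GENCODE release 29, which also gave exon overlaps.

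Groups came from the treatment label. All 6 libraries entered edgeR 4.0.16 (R 4.3.3) after filterByExpr (default minimum count of 10 and total of 15). The fit used TMM factors, group as the sole term, the quasi-likelihood test and Benjamini-Hochberg adjustment over 19771 genes, and genes with adjusted p under 0.05 were called. SE is the size of the unshrunk coefficient over the square root of F. The fits were also run on simulated counts in which few genes changed. Most genes of these data were called, so that run cannot check the scaling used here. Within groups, pairs of libraries gave a chi-square of 10.2 to 26.5 per gene, so none was a copy. Intervals cover counting error only.

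Alternatives were other scalings (DESeq2 size factors, upper quartile, plain totals), no mitochondrial genes, a minimum mean count of 50 in place of the filter or no filter, DESeq2 1.42.0, limma 3.58.1 (voom, and trend on log2(FPKM + 1) or log2(FPKM + 0.1), with or without a filter of FPKM at least 1 in 3 libraries), a replicate block, a length trend (span 0.3) removed, and leaving out each library. Fold changes on log2(FPKM + pseudocount) understate those of low genes. Members, roles and lists were chosen with earlier results of these data known. Named with values in every library were tested drug exporters, mitochondrial and ribosome-linked members, and in other roles called members of smallest p (up to 6) and the 2 most abundant. Related genes were named as up to 3 per list that passed, of smallest p. TAP2, KCNJ11, MYLIP, NR1H2 and NR1H3 were added after their values were seen. Some genes are counted in the totals but are not reported here by name.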

Additional observations from a re-analysis of the deposited data

How the results depend on the processing

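Over 19 other settings none of the 26 named members that passed changed direction, and 22 of the 26 kept their call wherever they were tested; ABCA10, ABCA13, ABCB8 and ABCC4 did not. Among FPKM values filtered at 1, 13 members rose and 8 fell with either pseudocount, as 5 lipid transporters rose and 1 fell and no mitochondrial member rose (0); there 4320 (pseudocount 1) or 4268 (pseudocount 0.1) of all genes rose. Fewer members, 26, passed that filter, and ABCA1, ABCA5, ABCB4 and ABCB9, which rose, reached it in 5-FU libraries only. Without this FPKM filter, 1 lipid transporter (ABCA3) fell and 1 mitochondrial member rose, as 1 did with no low-count filter, at a mean count of at least 50 and in DESeq2. ABCB6 (mean count 46) was not tested under the FPKM filter or at a mean count of at least 50. It kept its call in each of the 16 settings that tested it. No drug exporter fell (0) with upper-quartile factors or at a mean count of at least 50. A ribosome-linked member (1, ABCF3) rose with upper-quartile factors, plain totals, a mean count of at least 50 and the length trend removed. Upper-quartile factors moved the median of all genes by 0.36 on the log2 scale, plain totals by 0.11 and the length trend by -0.11; the cause of the changed calls was not tested.

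Leaving out each library gave 21 to 23 members higher and 5 to 7 lower. By role it gave 7 drug exporters higher and 1 lower, 9 to 11 lipid transporters higher, 1 to 2 mitochondrial members higher and 2 to 3 ribosome-linked members lower. Over all tested genes 6639 to 7274 were higher (32.1% to 35.3%) and 6318 to 6830 lower (30.9% to 33.1%). The replicate block, for which same-numbered libraries did not deviate together (correlations -0.20 to 0.06), gave 21 members higher and 5 lower, losing ABCA10. With it 6863 of all tested genes were higher (34.7%) and 6380 lower (32.3%).

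Members that did not pass changed sign in some settings, given as log2 fold changes. ABCA2 was at -0.0031 with DESeq2 size factors, -0.11 with no low-count filter and in DESeq2, -0.072 with the length trend removed, -0.10, -0.11 and -0.10 on the FPKM scales, and -0.037 to 0.062 when libraries were left out, but passed as higher with upper-quartile factors (0.39) and at a mean count of at least 50 (0.29). ABCA3 passed as lower on the 3 FPKM scales. With upper-quartile factors ABCA3 was at 0.22, ABCC2 at 0.23, ABCD3 at 0.11, ABCF2 at 0.014 and ABCG2 at 0.18. At a mean count of at least 50 ABCA3 was at 0.12, ABCC2 at 0.13 and ABCG2 at 0.067. ABCC2 lay between -0.33 and 0.086 when libraries were left out. Depth limits what can be said of the 10 untested members.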

Other observations

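Beside the 45 protein-coding members, 16 genes of other classes carry an ABC name, of which 3 could be tested. ABCA17P, a pseudogene, had 88, 90 and 101 counts after 5-FU and 33, 45 and 38 in control (log2 fold change 1.37). ABCC6P1, a partial copy of ABCC6, had 167, 123 and 149 counts after 5-FU and 86, 111 and 81 in control (0.77), close to the 0.68 of ABCC6, with which it may share reads. ABCA11P had 80, 90 and 81 counts after 5-FU and 49, 55 and 67 in control (0.66). All 3 passed at an edgeR adjusted p under 0.05.

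ABCB4 and ABCB1 are neighbours on chromosome 7, with 23.2 kb between them, and ABCC1 and ABCC6 lie 5.85 kb apart on chromosome 16. All 4 rose, beside 27.8% of tested protein-coding genes that rose. ABCA10 and ABCA5, whose ends overlap on chromosome 17, both rose too (log2 fold changes 1.15 and 1.85). They share some exonic bases, and ABCA10 was tested only through its 5-FU counts. The remaining neighbours could not be compared in this way, since each pair holds a gene that was not tested. ABCC11, which rose, lies 10.9 kb from ABCC12, which had 0 counts after 5-FU and 3 in control and was not tested. ABCG5 and ABCG8 overlap on chromosome 2, and neither was tested. Whether neighbouring members moved together was not tested.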
